A study of Mus musculus with 8 samples.

Results

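Deep-layer projection neuron identity genes are the markers and regulators that set neurons of cortical layers 5 and 6 apart from the other neurons of the cortex. The 10 genes *Fezf2*, *Bcl11b*, *Crym*, *Ldb2*, *Etv1*, *Tbr1*, *Sox5*, *Tle4*, *Foxp2* and *Zfpm2* were named for that role, with no threshold on their values. They were found by Ensembl identifier among the 48709 genes listed for each library, and all 10 were among the 16287 genes that passed the filter on low counts.

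Layer 5 holds the neurons that send axons to the brainstem and spinal cord, and layer 6 holds most of those that project to the thalamus. A small circuit of transcription factors separates these fates: *Fezf2* and its downstream factor *Bcl11b* (the gene of Ctip2) drive the layer 5 subcerebral fate, whereas *Tbr1* and *Sox5* hold that programme down in layer 6 neurons. The BAF complex is a chromatin remodeler that moves nucleosomes, and BAF155 and BAF170 are its scaffolding subunits.

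RNA of the P1 mouse cortex was sequenced from 4 control and 4 dcKO_Nex-Cre samples, with 1 library each. In the dcKO_Nex-Cre cortex both floxed alleles of *Smarcc1* (BAF155) and of *Smarcc2* (BAF170) are removed by Nex-Cre, which is expressed from the *Neurod6* locus in postmitotic principal neurons of the cortex. The controls carried no Cre and 1 floxed and 1 wild-type allele of each gene, and all mice were on a C57BL6/J background. The sample labels say only control or mutant, and the Cre line and the control genotype come from the study's methods. The RNA came from whole tissue, in which glia and interneurons keep both genes. Fewer deep-layer neurons and less RNA of a gene per neuron therefore cannot be told apart by these counts. By immunostaining at P1, the study reported similar numbers of Ctip2+ neurons in both groups, a count of cells rather than RNA. It described their distribution as arguably close to normal. By in situ hybridization at P1, with *Etv1* among the probes, it reported less defined layers and a mild spread of lower-layer neurons. Those are findings on where the cells lie, not on RNA levels. Neither the labels nor the methods say whether the samples of a group were separate animals, and the p values measure the spread between these samples only.

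The libraries held 17958641 to 35191912 counts, and levels are in CPM, which is counts scaled to TMM-normalized library size. *Smarcc1* and *Smarcc2* were at 69.2% and 56.9% of their control level in the dcKO_Nex-Cre cortex (adjusted p = 0.0348 and 0.00267 from edgeR). All 6 markers of cortical excitatory neurons were detected, and 5 had a log2 fold change below 0, as did 49.1% of all tested genes. Of the 6, 2 were called lower by edgeR at an adjusted p under 0.05, *Emx1* and *Neurod6*, against 0.51% of all tested genes. The median over the 6 was -0.38. The summed level of the 6 was 1176 to 1430 CPM in the control and 878 to 1012 CPM in the dcKO_Nex-Cre libraries. Without *Neurod6*, whose locus carries Cre, the sums overlapped at 591 to 680 and 542 to 609 CPM. By the lane tag in the file names, dcKO_Nex-Cre replicates 3 and 4 came from lane 8, which held no control, and the other 6 libraries from lane 2. Values within lane tag 2 are therefore given beside the result of each of the 10 genes. They are also given for each called gene of the other lists, but not for the markers of cell types. A pair of libraries stood apart in markers of striatal projection neurons, the neurons of the region below the cortex. *Isl1*, a striatal transcription factor, reached 35.3 CPM in replicate 2 of the dcKO_Nex-Cre group and 20.3 CPM in replicate 2 of the control, against 3.26 to 5.65 CPM in the other 6 libraries.

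At an adjusted p under 0.05 from edgeR, 0 of the 10 deep-layer genes were called in either direction, where 0.51% of all tested genes were called lower and 0.375% higher. These shares moved with single libraries: over 8 fits with 1 library left out each time, 9 to 619 genes were called lower and 9 to 659 higher, the most in both directions without dcKO_Nex-Cre replicate 4. At an unadjusted p under 0.05, 3 of the 10 genes (*Fezf2*, *Crym* and *Ldb2*) were lower and 0 were higher, against 7.05% and 6.59% of all tested genes. In 2 of the 10 (*Fezf2* and *Crym*), the highest dcKO_Nex-Cre library was lower than the lowest control library, which was so for 4.01% of all tested genes, and 0 of the 10 showed the opposite separation, which was so for 3.99%. The median log2 fold change of the 10 genes was -0.06, against 0.00 over all tested genes, and their median absolute log2 fold change was 0.13, as it was over all tested genes. By the Wald test of DESeq2, *Fezf2* and *Crym* were called lower, or 2 of the 10, against 1.66% of the genes it tested, and 0 were called higher, against 1.31%. With limma-voom 0 of the 10 were called in either direction.

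**Figure D1:**
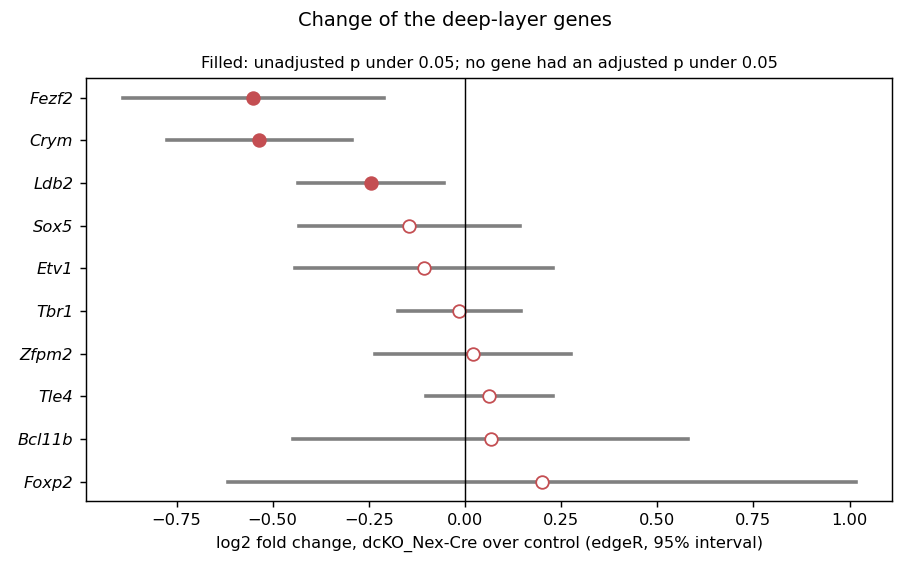
Log2 fold change of each deep-layer gene, dcKO_Nex-Cre over control, from edgeR (points) with its 95% interval (bars), sorted by size. The intervals of *Fezf2*, *Crym* and *Ldb2* lie below 0 (filled points, unadjusted p under 0.05), and the other 7 include 0.

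The layer 5 regulator *Fezf2* (ENSMUSG00000021743, chromosome 14 of GRCm38, 12342094 to 12348189), a zinc-finger factor that selects the subcerebral fate, was at 66.0, 53.5, 77.5 and 54.9 CPM in control replicates 1 to 4. It was at 52.0, 36.1, 48.6 and 35.02 CPM in dcKO_Nex-Cre replicates 1 to 4. The groups did not overlap, although the highest dcKO_Nex-Cre library and the lowest control library were close. The dcKO_Nex-Cre mean, 43.0 ± 8.63 CPM (SD, n = 4), was 68.2% of the control mean, 63.0 ± 11.2 CPM (SD, n = 4). This is a log2 fold change of -0.55 (SE 0.15, 95% interval -0.89 to -0.21, adjusted p = 0.149 from edgeR), and the two-sided exact permutation test over the 70 regroupings gave p = 0.0286, below which a design of this size cannot go. Within lane tag 2 the log2 fold change was -0.51 (adjusted p = 0.156 from edgeR). DESeq2's Wald test gave an adjusted p of 0.0422, and the 8 fits without a library gave log2 fold changes of -0.66 to -0.43 with edgeR's adjusted p between 0.0957 and 0.380.

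*Crym* (ENSMUSG00000030905, chromosome 7, 120186380 to 120202111) encodes mu-crystallin, a thyroid hormone-binding protein of the cytosol that marks subcerebral neurons of layer 5. It was at 122, 112, 143 and 109 CPM in control replicates 1 to 4 and at 80.5, 88.2, 95.1 and 71.5 CPM in dcKO_Nex-Cre replicates 1 to 4. Each dcKO_Nex-Cre library was below each control library, and the gap between the groups was wider than for *Fezf2*. The dcKO_Nex-Cre mean of 83.8 ± 10.2 CPM (SD, n = 4) was 69.0% of the control mean of 122 ± 15.6 CPM (SD, n = 4), with a log2 fold change of -0.54 (SE 0.11, 95% interval -0.78 to -0.29). Its adjusted p from edgeR was 0.0504, just above the threshold, and the exact permutation test again gave its smallest p of 0.0286. DESeq2's Wald test gave an adjusted p of 0.00221. Within lane tag 2 the log2 fold change was -0.53 (adjusted p = 0.0537 from edgeR). The call turned on small choices. Over the 8 fits with 1 library left out, the adjusted p from edgeR ran from 0.0256 to 0.176 and passed the threshold in 1. With at least 10 counts required in every library it was 0.0481, and the passing fit without a library was that without dcKO_Nex-Cre replicate 4, with a log2 fold change of -0.46.

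*Ldb2* (ENSMUSG00000039706, chromosome 5, 44472132 to 44799680) encodes a LIM domain-binding cofactor enriched in layer 5. Its levels were 123, 103, 124 and 117 CPM in the control and 111, 90.7, 94.4 and 98.0 CPM in the dcKO_Nex-Cre libraries. Only dcKO_Nex-Cre replicate 1 and control replicate 2 crossed between the groups. This gave a log2 fold change of -0.25 (SE 0.09, adjusted p = 0.249 from edgeR), the 95% interval ran from -0.43 to -0.06, and the exact permutation test gave p = 0.0571. Within lane tag 2 the log2 fold change was -0.21 (adjusted p = 0.265 from edgeR).

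Relative to *Tbr1*, a layer 6 gene read from the same libraries and so free of any scaling between them, *Fezf2* had 30.4 to 44.5 counts per 100 *Tbr1* counts in the control and 20.8 to 27.3 in the dcKO_Nex-Cre libraries. *Crym* had 61.4 to 82.1 counts per 100 *Tbr1* counts in the control and 42.2 to 53.7 in the dcKO_Nex-Cre libraries. *Ldb2* had 58.6 to 71.1 and 51.7 to 58.3, with a gap smaller than the spread within either group. These 3 of the 9 genes set against *Tbr1* did not overlap between the groups and were lower in the dcKO_Nex-Cre libraries, as were 3.25% of all tested genes (4.13% were higher without overlap). The other 6 overlapped, among them *Bcl11b* at 77.1 to 97.8 counts per 100 *Tbr1* counts in the control and 59.8 to 152 in the dcKO_Nex-Cre libraries.

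*Etv1* (ENSMUSG00000004151, chromosome 12, 38779380 to 38870484), an ETS factor of layer 5, was low in 1 library of each group. It was at 31.1, 20.96, 28.8 and 32.6 CPM in the control and at 28.3, 26.3, 30.5 and 20.3 CPM in the dcKO_Nex-Cre libraries, so that the groups covered nearly the same range. Its log2 fold change was -0.11 (SE 0.15, 95% interval -0.44 to 0.23, adjusted p = 0.782 from edgeR), and -0.06 within lane tag 2 (adjusted p = 0.857 from edgeR).

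**Figure D2:**
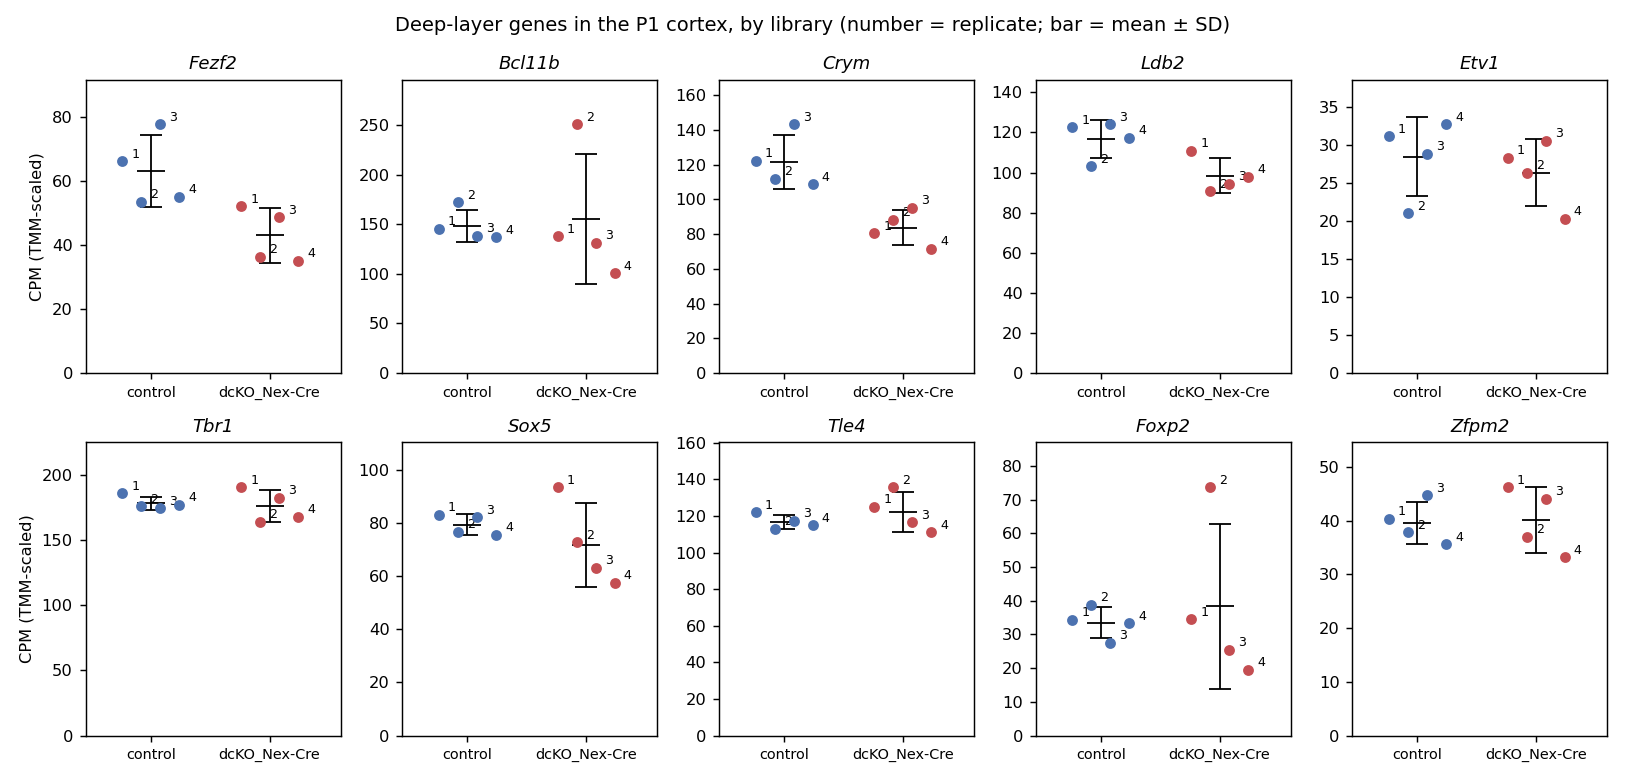
CPM of the 10 deep-layer genes in each library, 1 panel per gene with layer 5 genes in the upper row and layer 6 genes in the lower, control in blue and dcKO_Nex-Cre in red, points numbered by replicate, bars the mean ± SD. *Fezf2* and *Crym* separate the groups, *Tbr1* does not, and *Bcl11b* and *Foxp2* have 1 high dcKO_Nex-Cre library, replicate 2.

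The layer 6 regulator *Tbr1* (ENSMUSG00000035033, chromosome 2, 61802930 to 61814114), a T-box factor that holds down the layer 5 programme in corticothalamic neurons, had the smallest fold change of the 10 genes. It was at 186, 176, 174 and 177 CPM in the control and at 191, 164, 183 and 168 CPM in the dcKO_Nex-Cre libraries. The control range lay inside the dcKO_Nex-Cre range. The log2 fold change was -0.02 (SE 0.07, adjusted p = 0.944 from edgeR), and the 95% interval of the ratio ran from 0.886 to 1.11 times the control level, the narrowest interval among the 10 genes. Its adjusted p within lane tag 2 was 0.984 from edgeR.

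The stretches before the RefSeq starts of *Fezf2* and *Tbr1* are shown because these 2 genes had the largest and the smallest fold change of the 10. Each is 250 bases of GRCm38, written 5′ to 3′ on the strand of the gene and ending at the base before the start. The *Fezf2* stretch is chr14:12345866-12346115 on the minus strand and the *Tbr1* stretch is chr2:61804203-61804452 on the plus strand, and both starts lie inside the gene as GENCODE M21 draws it, 2324 and 1523 bases from its 5′ end. Capitals mark the letters AACAAT, a core read by SOX factors.
Fezf2: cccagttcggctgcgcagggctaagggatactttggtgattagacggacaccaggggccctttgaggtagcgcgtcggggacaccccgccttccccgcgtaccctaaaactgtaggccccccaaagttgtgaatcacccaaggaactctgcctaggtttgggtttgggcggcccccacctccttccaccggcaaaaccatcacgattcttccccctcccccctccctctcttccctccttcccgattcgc
Tbr1: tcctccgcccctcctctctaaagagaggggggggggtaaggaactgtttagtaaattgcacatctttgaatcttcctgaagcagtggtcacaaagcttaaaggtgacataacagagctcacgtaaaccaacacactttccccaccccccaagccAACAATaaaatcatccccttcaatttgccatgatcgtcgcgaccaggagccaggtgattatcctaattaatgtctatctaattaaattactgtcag
The *Fezf2* stretch was 61.2% G and C with 14 CG pairs, and the *Tbr1* stretch was 45.2% G and C with 5 CG pairs, against medians of 52.4% and 6 over 32851 mouse promoters in the same RefSeq table. RefSeq starts were matched for 6 of the 10 genes, with 8 promoters in all. In the same window and on both strands, the SOX core (AACAAT or ATTGTT) was present in 3 of the 8 promoters and in 9.42% of all promoters. The E-box CAGATG or CATCTG was present in 1 of the 8 and in 14.4% of all, and the T-box site TCACACC or GGTGTGA in 0 of the 8 and in 3.33% of all. No occurrences of different motifs overlapped in the 8 promoters, and a match of letters does not show that a factor binds there.

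*Sox5* (ENSMUSG00000041540, chromosome 6, 143828425 to 144781977), a SOX factor that delays the layer 5 programme in early-born neurons, varied more among the dcKO_Nex-Cre libraries than among the control. It was at 83.2, 76.7, 82.2 and 75.6 CPM in the control and at 93.5, 72.7, 63.1 and 57.6 CPM in the dcKO_Nex-Cre libraries. Replicate 1 of the dcKO_Nex-Cre group was above every control library and the other 3 were below all of them. Over all libraries the log2 fold change was -0.14 (SE 0.13, 95% interval -0.43 to 0.14, adjusted p = 0.639 from edgeR), and it was 0.07 (adjusted p = 0.724 from edgeR) within lane tag 2, which leaves out the 2 lowest libraries. The antisense gene *Sox5os1* shares 1330 exon bases with *Sox5*, and its mean count was 0. No other gene of the 10 shares exon bases with a listed gene.

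*Tle4* (ENSMUSG00000024642, chromosome 19, 14448150 to 14598051), a Groucho corepressor of layer 6, was at 122, 113, 117 and 115 CPM in the control and at 125, 136, 116 and 111 CPM in the dcKO_Nex-Cre libraries. Its groups overlapped, and its log2 fold change was 0.06 (SE 0.08, 95% interval -0.10 to 0.23, adjusted p = 0.731 from edgeR), and 0.16 within lane tag 2 (adjusted p = 0.241 from edgeR). *Zfpm2* (ENSMUSG00000022306, chromosome 15, 40655035 to 41104592), which encodes the cofactor FOG2 of corticothalamic neurons, was at 40.3, 37.8, 44.7 and 35.6 CPM in the control and at 46.3, 37.0, 44.1 and 33.2 CPM in the dcKO_Nex-Cre libraries. The dcKO_Nex-Cre values spread a little wider on both sides, and the log2 fold change was 0.02 (SE 0.12, 95% interval -0.23 to 0.27, adjusted p = 0.952 from edgeR), and 0.08 within lane tag 2 (adjusted p = 0.735 from edgeR).

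*Bcl11b* and *Foxp2*, which striatal projection neurons also express strongly, depended on dcKO_Nex-Cre replicate 2. *Bcl11b* (ENSMUSG00000048251, chromosome 12, 107910403 to 108003602), the zinc-finger factor needed for corticospinal axon growth, was at 145, 172, 138 and 137 CPM in the control and at 138, 250.45, 131 and 101 CPM in the dcKO_Nex-Cre libraries. Replicate 2 of the dcKO_Nex-Cre group was the highest of the 8 libraries and replicate 4 the lowest. The log2 fold change was 0.07 (SE 0.23, 95% interval -0.45 to 0.58, adjusted p = 0.920 from edgeR) with all libraries and -0.26 (adjusted p = 0.503 from edgeR) without dcKO_Nex-Cre replicate 2.

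*Foxp2* (ENSMUSG00000029563, chromosome 6, 14901349 to 15441977), a forkhead factor of layer 6, had the same shape. It was at 34.3, 38.9, 27.6 and 33.3 CPM in the control and at 34.5, 73.7, 25.5 and 19.5 CPM in the dcKO_Nex-Cre libraries. Its log2 fold change was 0.20 (SE 0.36, 95% interval -0.62 to 1.02, adjusted p = 0.834 from edgeR), the widest interval of the 10 genes, and -0.32 (adjusted p = 0.563 from edgeR) without dcKO_Nex-Cre replicate 2. Within lane tag 2, where replicate 2 is 1 of 2 dcKO_Nex-Cre libraries, it was 0.69 (adjusted p = 0.207 from edgeR), and *Bcl11b* was at 0.39 (adjusted p = 0.302 from edgeR).

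Striatal markers moved with these values. *Ebf1*, a transcription factor of striatonigral neurons, reached 39.0 CPM in replicate 2 of the dcKO_Nex-Cre group and 15.6 CPM in replicate 2 of the control, against 4.77 to 8.78 CPM elsewhere. *Drd2*, the D2 dopamine receptor, was at 12.4 CPM, 5.25 CPM and 1.23 to 2.95 CPM in the same order. In both groups the library with the most *Isl1* was also the highest in *Bcl11b* and in *Foxp2*. Of the 12 striatal markers 11 were tested and 1 was called (*Ppp1r1b*, higher), against 0.375% of all tested genes called higher. None of the 12 was at 0 in all libraries. The summed level of the 12 was 122 to 191 CPM in the control and 108 to 363 CPM in the dcKO_Nex-Cre libraries. With both libraries of *Isl1* above 10 CPM left out, a choice made after seeing these values, the log2 fold change was -0.19 for *Bcl11b* and -0.25 for *Foxp2* (adjusted p = 0.660 and 0.719 from edgeR), -0.60 for *Crym* and -0.55 for *Fezf2* (adjusted p = 0.130 and 0.281 from edgeR). The part of striatal RNA in the *Bcl11b* and *Foxp2* values was not tested.

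**Figure D3:**
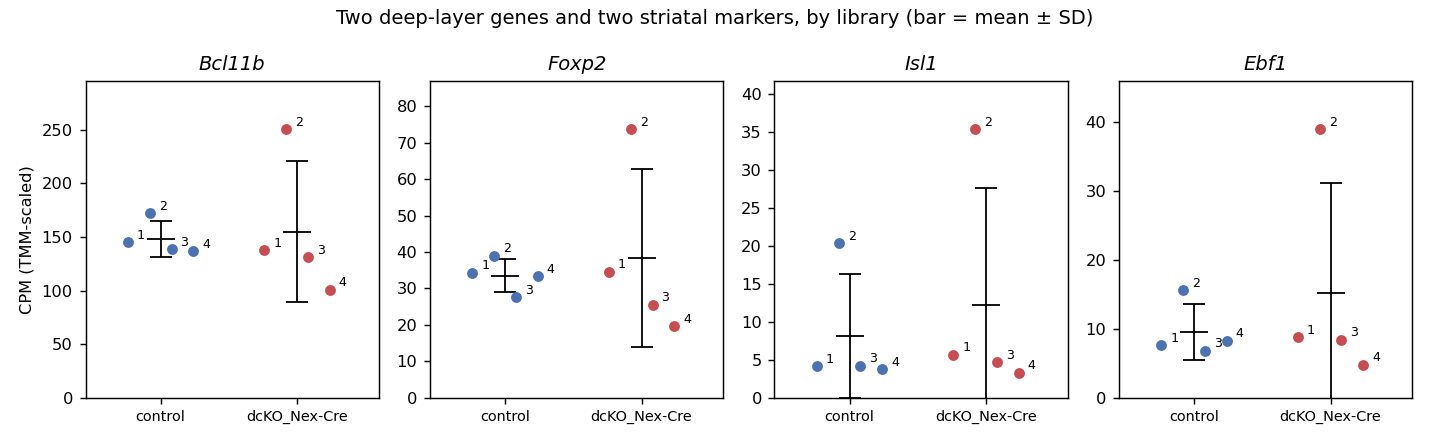
CPM of *Bcl11b* and *Foxp2* and of the striatal markers *Isl1* and *Ebf1* in each library, control in blue and dcKO_Nex-Cre in red, points numbered by replicate, bars the mean ± SD with the axis starting at 0, where the lower bars of *Isl1* and of *Ebf1* in dcKO_Nex-Cre end. Replicate 2 is the highest library of its group in all 4 panels.

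The 10 genes also varied by library. Replicate 4 of the dcKO_Nex-Cre group, which had the fewest counts of the 8 libraries and 6.15% mitochondrial counts against 2.33% to 3.47% in the others of its group (3.38% to 6.87% in the control), was the lowest of its group for 8 of the 10 genes. Replicate 1 was the highest for 5 of the 10. In the control no library was lowest for more than 4. The summed level of the 10 genes was 887 to 958 CPM in the control and 715 to 975 CPM in the dcKO_Nex-Cre libraries, so the sums overlapped.

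Levels were set side by side between genes per kilobase of exon, with all annotated exons of a gene merged. The merged length can exceed that of the transcripts expressed, which were not identified, so the order depends on the annotation. *Crym* was at 35.8 ± 4.59, *Ldb2* at 35.01 ± 2.86 and *Tbr1* at 32.5 ± 0.94 CPM per kilobase in the control (SD, n = 4). These 3 means differed by less than the SD of *Crym*. *Fezf2* at 20.7 ± 3.67, *Tle4* at 20.5 ± 0.67 and *Bcl11b* at 18.2 ± 2.03 followed, again within the largest SD among them. *Sox5* was at 5.53 ± 0.27 and *Zfpm2* at 4.16 ± 0.41, which differed by more than either SD, and *Etv1* at 2.13 ± 0.39 and *Foxp2* at 2.05 ± 0.28 did not. In the dcKO_Nex-Cre cortex *Tbr1* at 32.2 ± 2.25 and *Ldb2* at 29.5 ± 2.65 came before *Crym* at 24.7 ± 2.99. *Fezf2* at 14.1 ± 2.83 came after *Tle4* at 21.4 ± 1.89 and *Bcl11b* at 19.1 ± 8.10. The means of *Fezf2* and *Bcl11b* differed by less than the SD of *Bcl11b*, which was highest in replicate 2.

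Other genes of these layers, listed from general knowledge of the cortex, put the 10 genes in context. The lists were drawn up with earlier results of these data known, so their counts are a description and not a test. The counts of each list are read against the shares of all tested genes, 0.51% lower and 0.375% higher at an adjusted p under 0.05 and 7.05% lower and 6.59% higher at an unadjusted p under 0.05 from edgeR. Calls by DESeq2's Wald test are read against its own larger shares, 1.66% lower and 1.31% higher of the genes it tested. Of 24 further layer 5 genes, 2 fell and 0 rose at an adjusted p under 0.05 from edgeR, and 8 were lower and 4 higher at an unadjusted p under 0.05, with a median log2 fold change of -0.09. DESeq2's Wald test called 5 lower and 1 higher. The 2 were *S100a10*, which encodes an annexin-binding protein of upper layer 5 neurons, with a log2 fold change of -1.49 (adjusted p = 0.000825 from edgeR), and *Diaph3*, a formin, with -0.69 (adjusted p = 0.0288 from edgeR). *Diaph3* was at 9.60 to 11.8 CPM in the control and at 6.0 to 7.43 CPM in the dcKO_Nex-Cre libraries, and its adjusted p passed the threshold in 1 of the 8 fits that left out a library, the fit without dcKO_Nex-Cre replicate 4, against 8 of 8 for *S100a10*. Within lane tag 2 the log2 fold changes were -0.76 for *Diaph3* and -1.43 for *S100a10* (adjusted p = 0.0439 and 0.0151 from edgeR).

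Sulfatase *Sulf1* had the lowest log2 fold change of the layer 5 genes at -1.50, with control libraries from 13.1 to 34.3 CPM and overlapping groups (adjusted p = 0.154 from edgeR). Its level was highest in control replicates 4 and 1, at 34.3 and 24.3 CPM, where the 5 markers of choroid plexus, the tissue that secretes cerebrospinal fluid, summed to 1328 and 734 CPM, and highest within the dcKO_Nex-Cre group in replicate 2, at 13.8 CPM, where they summed to 552 CPM. The choroid plexus sum was 3.65 to 92.4 CPM in the other 5 libraries, and its part in the *Sulf1* values was not tested. The highest were the forkhead gene *Foxo1* at 0.55 and the natriuretic peptide receptor gene *Npr3* at 0.51 (adjusted p = 0.292 and 0.0634 from edgeR). *Npr3* was at 13.9 to 15.4 CPM in the control and at 17.2 to 23.8 CPM in the dcKO_Nex-Cre libraries, with no overlap. Of the 24 layer 5 genes, 13 had a log2 fold change below 0 and 11 above, against 49.1% and 50.9% of all tested genes. The groups did not overlap for 6 lower genes and 1 higher gene of the 24, against 4.01% and 3.99% of all tested genes.

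Of 16 further layer 6 genes, 0 were called in either direction, 3 were lower and 3 higher at an unadjusted p under 0.05, and the median log2 fold change was -0.09. DESeq2's Wald test called 2 lower (*Oprk1* and *Garnl3*) and 2 higher (*Sema3e* and *Nxph3*), and limma-voom called 0. The lowest by edgeR were the kappa opioid receptor gene *Oprk1* at -1.36 and the nuclear receptor gene *Nr4a2* at -0.54 (adjusted p = 0.0875 and 0.226 from edgeR). The highest were *Sema3e*, a secreted semaphorin, at 0.75 and *Nxph3*, a neurexophilin, at 0.45 (adjusted p = 0.117 and 0.0645 from edgeR). *Nxph3* was at 38.6 to 46.4 CPM in the control and at 49.5 to 64.7 CPM in the dcKO_Nex-Cre libraries, with no overlap.

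**Figure D4:**
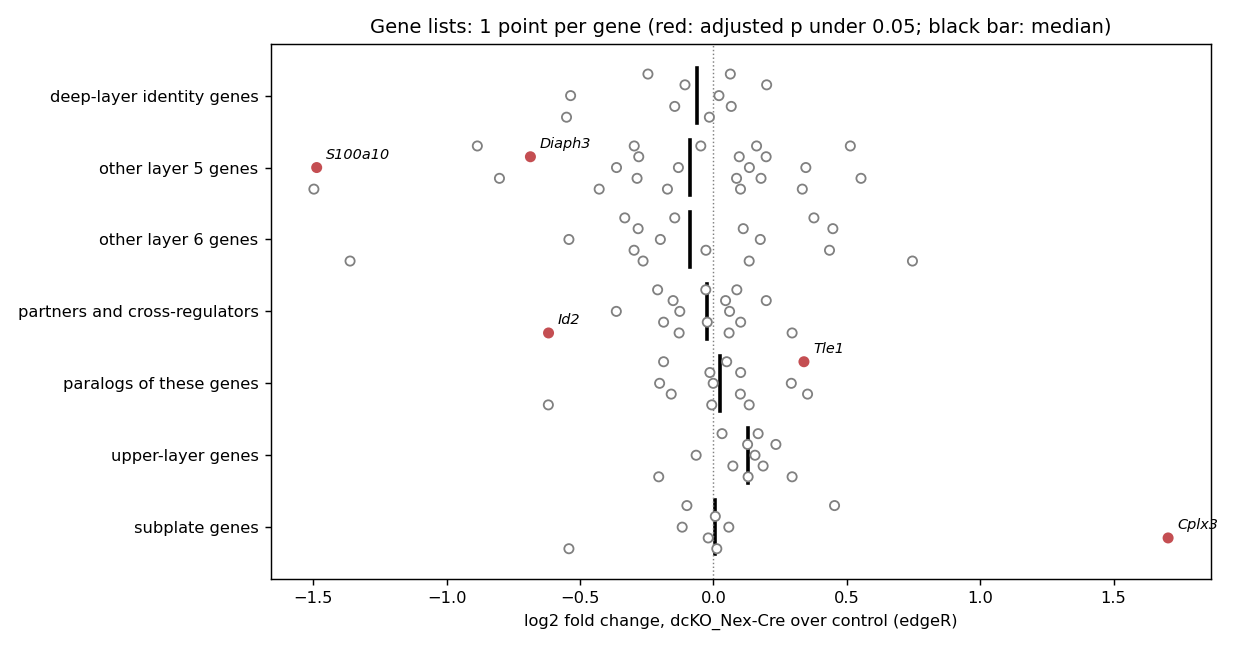
Log2 fold change (horizontal axis, dcKO_Nex-Cre over control, from edgeR) of each tested gene in the 10 deep-layer genes and 6 other lists, red where the adjusted p was under 0.05, black bars the median of each list. The medians lie between -0.09 (layer 5 and 6 genes) and 0.13 (upper-layer genes), and 5 genes in all are red.

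Of 16 partners and cross-regulators of the 10 genes, such as *Ski* and *Bcl11a*, 1 fell and 0 rose at an adjusted p under 0.05 from edgeR, and 1 was lower and 1 higher at an unadjusted p under 0.05. The gene that fell was *Id2*, an inhibitor of basic helix-loop-helix factors, at 386 to 458 CPM in the control and 239 to 353 CPM in the dcKO_Nex-Cre libraries (log2 fold change -0.62, adjusted p = 0.0457 from edgeR), and it passed in 1 of the 8 fits that left out a library, that without dcKO_Nex-Cre replicate 4. Its log2 fold change within lane tag 2 was -0.78 (adjusted p = 0.0156 from edgeR). DESeq2's Wald test called *Id2* lower and *Lmo4* higher. The next lowest was *Tshz2*, a teashirt zinc-finger gene, at -0.36, and the highest were the LIM-only gene *Lmo4* at 0.30 and *Sox11* at 0.20 (adjusted p = 0.525, 0.102 and 0.381 from edgeR). The median of the list was -0.03.

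Paralogs of the 10 genes were counted to see whether related genes differed. Of 16 paralogs 14 were tested, *Tbx21* and *Foxp3* being too low, and 1 rose and 0 fell, with 1 higher and 1 lower at an unadjusted p under 0.05. It was *Tle1*, a Groucho corepressor like *Tle4*, at 72.1 to 82.2 CPM in the control and 92.8 to 98.7 CPM in the dcKO_Nex-Cre libraries (log2 fold change 0.34, adjusted p = 0.0479 from edgeR), which passed in 1 of the 8 fits that left out a library, that without dcKO_Nex-Cre replicate 4. The call was lost within lane tag 2 (0.34, adjusted p = 0.0628 from edgeR), with limma-voom (adjusted p = 0.0512) and without a filter (adjusted p = 0.0590 from edgeR), and DESeq2's Wald test called *Tle1* higher and *Tle2* lower. *Tle2* and *Tle3*, of the same family, had the lowest log2 fold changes of the list at -0.62 and -0.20 (adjusted p = 0.110 and 0.399 from edgeR), and *Sox13*, a relative of *Sox5*, had the highest at 0.35 (adjusted p = 0.400 from edgeR). The 4 *Tle* genes therefore had log2 fold changes on both sides of 0.

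Of 11 upper-layer genes, 0 were called in either direction by edgeR or limma-voom, 0 were lower and 1 higher at an unadjusted p under 0.05, and DESeq2's Wald test called 1 higher, *Lmo4*, which is also in the list of partners. Of the 11, 9 had a log2 fold change above 0, as did 50.9% of all tested genes, and the median was 0.13, against 0.00 over all tested genes and -0.06 for the 10 deep-layer genes. *Lmo4* and *Mdga1*, a cell adhesion gene, were the highest at 0.30 and 0.23, and the semaphorin receptor gene *Plxnd1* and the homeobox gene *Cux2* the lowest at -0.20 and -0.06 (adjusted p = 0.102, 0.400, 0.519 and 0.881 from edgeR). Of 9 genes of the subplate, the transient neurons below layer 6, 1 rose and 0 fell, with 1 higher and 1 lower at an unadjusted p under 0.05 and a median of 0.01. It was *Cplx3*, the gene of complexin 3, at 0.93 to 2.16 CPM in the control and 4.14 to 6.07 CPM in the dcKO_Nex-Cre libraries (log2 fold change 1.70, adjusted p = 0.0162 from edgeR), which passed in 5 of the 8 fits that left out a library. The log2 fold change within lane tag 2 was 1.48 (adjusted p = 0.0439 from edgeR). The lowest 2 subplate genes were *Nr4a2*, also in the layer 6 list, at -0.54 and *Moxd1* at -0.12, and the second highest was *Trh* at 0.45 (adjusted p = 0.226, 0.870 and 0.472 from edgeR).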

How the data were processed

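Per the labels and the files, the authors deposited unnormalized counts for each Ensembl gene in 8 libraries of P1 mouse cortex, 4 control and 4 dcKO_Nex-Cre, made from TRIZOL-extracted RNA with an Illumina TruSeq kit. The submitters' processing notes name mm10, and the aligner, the counting program, the annotation and the use of strand are not given in the sources used here. Identifiers were matched to GENCODE M21 on GRCm38 for 48349 of the 48709 genes. Counts were filtered by filterByExpr, scaled by TMM and tested, two-sided and without covariates, with edgeR 4.0.16 (quasi-likelihood, robust) in R 4.3.3, with Benjamini-Hochberg adjustment across the 16287 tested genes and a threshold of 0.05. CPM of single genes were also compared by exact permutation over all 70 regroupings. DESeq2 1.42.0, limma-voom (limma 3.58.1), other filters, the replicate number as a block, lane tag 2 only and fits without a library were the alternatives. The depth of 17958641 to 35191912 counts per library gave each of the 10 genes at least 348 counts per library.

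The 10 genes and the other lists were chosen with earlier results of these data known. Some items are not reported here, and the lists are counted without them. All 10 are named, and from each other list the genes with an adjusted p under 0.05, the 2 highest and the 2 lowest. *Smarcc1*, *Smarcc2* and markers are named as checks, and *Isl1*, *Ebf1*, *Drd2*, *Ppp1r1b* and *Garnl3* were named after their values were seen. Python 3.11.15 and matplotlib 3.10.9 were used for tables and figures. Promoter sequences are from RefSeq on GRCm38.p6.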

Additional observations from a re-analysis of the deposited data

Results flagged for a closer look

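In 5 of 76 groups of 4 libraries, 1 library lay far from the other 3, and chance gives about 1 in 20. The groups covered the 10 deep-layer genes, the named genes of the lists, total counts, mitochondrial percent and summed striatal, thalamic and hippocampal markers. None of the 5 was among the 10 deep-layer genes. Control replicate 2 had 101 CPM of *S100a10*, against 67.9 to 72.2 CPM in its group otherwise. The dcKO_Nex-Cre replicate 1 had 63.2 CPM of *Nr4a2*, against 35.5 to 37.9 CPM in the other 3, and lay within the control range of 51.5 to 72.5 CPM. *Id2* and *Tle2* were at 353 and 30.7 CPM in dcKO_Nex-Cre replicate 4, against 239 to 258 CPM and 19.0 to 20.6 CPM in the others of that group. For *Tle3*, control replicate 4 was low at 87.6 CPM, and the remaining controls lay at 103 to 105 CPM.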

How the results depend on the processing

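Of the values of the 10 deep-layer genes under the alternatives, 137 of 160 kept their direction and their side of the threshold, 7 passed it newly and 16 changed sign, with no call to lose. Over the named genes of all lists, 34 of 527 values lost their call, 32 gained one and 23 changed sign. Of the 10 genes called lower, the count of 0 became 2 with DESeq2's Wald test (*Fezf2* and *Crym*), 1 without a filter and 1 with at least 10 counts in every library (*Crym* each time, adjusted p = 0.00727 and 0.0481 from edgeR), and 0 to 1 over the fits without a library. No gene of the 10 was called higher under any alternative. Over all genes, 83 lower and 61 higher became 265 and 209 with DESeq2's Wald test, 150 and 109 without a filter, and 21 and 19 without both libraries of high *Isl1*, and 140 were higher within lane tag 2. Without control replicates 1 to 4, 9, 54, 17 and 10 genes were lower and 9, 33, 11 and 11 higher. Without dcKO_Nex-Cre replicates 1 to 4, 46, 21, 12 and 619 were lower and 31, 27, 13 and 659 higher.

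With the replicate number as a block, 33 genes were lower and 21 higher, and 2 of the 10 deep-layer genes were lower, *Crym* (adjusted p = 0.0425 from edgeR) and *Fezf2* (0.0493), while *Diaph3*, *Id2* and *Tle1* lost their call (adjusted p = 0.0989, 0.0910 and 0.124 from edgeR) and *Bcl11b* was at -0.013 on the log2 scale. Libraries of the same number had deviations correlated at 0.13, 0.02, 0.13 and -0.14. Libraries of different numbers were not compared, so these values cannot decide whether the number pairs the libraries. The labels give only the number, and the main fit used no pairing.

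Signs changed only for log2 fold changes that passed no test. *Bcl11b* was at -0.015 with limma-voom, *Sox5* at 0.069 and *Plxnd1* at 0.024 within lane tag 2. Without both libraries of high *Isl1*, *Bcl11b* was at -0.19, *Foxp2* at -0.25, *Tbr1* at 0.0065, *Tle4* at -0.011 and *Cux2* at 0.10. Over the fits without a library the ranges crossed 0 for *Bcl11b* (-0.26 to 0.23), *Tbr1* (-0.054 to 0.021), *Foxp2* (-0.32 to 0.42), *Etv1* (-0.22 to 0.00058), *Zfpm2* (-0.055 to 0.10), *Cux2* (-0.21 to 0.086) and *Moxd1* (-0.27 to 0.091). The causes of these differences were not tested. The biological coefficient of variation was 0.143, and the 95% intervals above give what these 8 libraries can resolve for each gene.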

Other observations

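*Ppp1r1b*, the gene of DARPP-32, a phosphatase inhibitor of striatal projection neurons that is also found in layer 6 neurons, was at 29.0, 30.7, 28.5 and 33.5 CPM in control replicates 1 to 4 and at 52.1, 88.3, 46.1 and 49.4 CPM in dcKO_Nex-Cre replicates 1 to 4. All dcKO_Nex-Cre libraries were above all control libraries, those with *Isl1* at 3.26 to 5.65 CPM included. Its log2 fold change was 0.96 (SE 0.18, adjusted p = 0.0400 from edgeR). The gene was picked after its values were seen.

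Among the markers of other cells, 7 thalamic genes summed to 113 to 130 CPM in the control and 88.5 to 107 CPM in dcKO_Nex-Cre libraries. The sum of 5 genes of oligodendrocyte precursors was 173 to 252.05 CPM and 252.13 to 308 CPM in the same order. Neither sum overlapped between the groups. The sums of 9 interneuron genes (798 to 937 and 701 to 843 CPM) and of 5 pan-neuronal genes (6212 to 7123 and 5914 to 7165 CPM) overlapped. So did those of 7 genes of radial glia and astrocytes (2140 to 2538 and 1655 to 2160 CPM) and of the 5 choroid plexus genes (15.98 to 1328 and 3.65 to 552 CPM). The 3 tested choroid plexus genes had a median log2 fold change of -1.87, and 0 of the 3 had an unadjusted p under 0.05 from edgeR.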
